A study of Mus musculus with 18 samples.

Results

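Myc, its partner Max and 40 genes of the nucleolar machinery that builds ribosomes were followed in RN2, a mouse line of acute myeloid leukemia that carries MLL-AF9 and NrasG12D. The 42 genes are a list of symbols, with no threshold on their values, and the list was drawn up with earlier results of these data known. Each symbol matched 1 of the 56748 gene IDs in the count table, and all 42 passed the filter on low counts with 14985 genes in total. Their summed counts over the 18 libraries started at 9580 for the least counted gene.

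The libraries were polyA-selected RNA of transduced and sorted cells, 3 in each of 6 groups. One group carried nCas9, the Cas9 nickase without a deaminase. Another carried the catalytic mutant, a base editor whose deaminase, evoA1, had lost its activity by mutation. A base editor joins a Cas9 nickase to a deaminase that converts a base in DNA, and intact BE is such an editor with an active deaminase. Intact BE and seBE, an editor construct whose abbreviation the labels do not spell out, were each studied under vehicle and under 1 nM rapamycin for 24 h. All groups carried a lentiviral construct, were sorted on day 5 after transduction, and shared the leukemia line, labelled WT in genotype. The labels give vehicle as the treatment of the nCas9 and catalytic mutant cells as well, while their sample titles name no treatment. Rapamycin was given to intact BE and seBE cells only. No group of untransduced cells was analysed here. RN2 is 1 line, and its libraries are labelled biological replicates while nothing states separate cultures or transductions, so a p-value here reflects the spread of these samples, which may be technical. The 8 myeloid leukemia markers examined, such as Ptprc, Kit and Mpo, were counted in all 18 libraries and summed to 1487 to 1839 CPM, counts scaled to a common library size. Markers of other blood, stromal and vessel cells reached at most 0.897 CPM in any library. The highest were Cd79a (B cell), counted in 17 of the 18 libraries, Col1a1 (fibroblast) in 15, Hba-a1 (erythroid) in 13 and Cdh5 (endothelial) in 11, while Hba-a2 and the megakaryocyte markers Pf4 and Gp1bb were counted in 2 or 3. The T cell markers Cd3e, Cd3g and Cd8a, and Ms4a1, Col1a2, Dcn and Kdr, were at 0 in all of them. In each of 2 groups 1 library stood apart from the others. In a chi-square comparison of counts over genes, catalytic mutant replicate 3 differed from the other two by 38.6 and 39.5 per degree of freedom, against 10.4 between those, and seBE rapamycin replicate 3 by 29.3 and 27.4, against 16.5. The results that rest on them are given with and without them.

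Ribosome biogenesis starts in the nucleolus, where RNA polymerase I transcribes the ribosomal RNA precursor. Small nucleolar ribonucleoproteins then modify this RNA, and a series of helicases, nucleases and assembly factors cut and fold it into the small and the large subunit. MYC, a transcription factor that binds the E-box motif as a dimer with MAX, drives many of these genes and is a main dependency of MLL-rearranged leukemia cells. The mTOR kinase complex that rapamycin inhibits promotes both ribosomal RNA synthesis and the translation of ribosomal protein messages.

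Because MYC and MAX bind CACGTG, the RefSeq promoter windows of the members (GRCm38.p6, 250 bases before to 50 bases from the transcript start) were searched for these letters, which read the same on both strands. A window was found for 34 of the 42 genes, and 8 had no entry: Myc, Tcof1, Fbl, Npm1, Nol6, Rrp12, Bop1 and Rrs1. The motif was present in 7 of the 34 (20.6%), namely Max, Mybbp1a, Nop2, Pes1, Utp20, Utp4 and Wdr43. It was present in 8.09% of all 27025 genes with a window, in 11.7% of the tested genes with a window, and in 16 of 79 (20.3%) other ribosome biogenesis genes. Of all 32851 windows, 7.15% held it. The median GC content was 59.3% in windows of the members and 52.7% in all windows, and the shares were not matched for it. The windows are shown for Mybbp1a and Utp20, which rose in every editor construct against nCas9, for Max, and for Pes1, which passed the test in no comparison. Each is printed 5′ to 3′ on the strand of its gene with the E-box in capitals. They lie at chr11:72441077-72441376 (plus strand) for Mybbp1a, chr10:88826765-88827064 (minus strand) for Utp20, chr12:76962199-76962498 (minus strand) for Max and chr11:3963725-3964024 (plus strand) for Pes1.
Mybbp1a: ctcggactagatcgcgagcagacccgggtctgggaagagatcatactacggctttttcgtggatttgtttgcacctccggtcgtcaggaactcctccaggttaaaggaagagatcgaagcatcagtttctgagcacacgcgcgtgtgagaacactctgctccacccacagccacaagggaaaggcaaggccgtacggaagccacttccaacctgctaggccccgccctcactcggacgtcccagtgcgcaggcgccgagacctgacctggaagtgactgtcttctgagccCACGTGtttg
Utp20: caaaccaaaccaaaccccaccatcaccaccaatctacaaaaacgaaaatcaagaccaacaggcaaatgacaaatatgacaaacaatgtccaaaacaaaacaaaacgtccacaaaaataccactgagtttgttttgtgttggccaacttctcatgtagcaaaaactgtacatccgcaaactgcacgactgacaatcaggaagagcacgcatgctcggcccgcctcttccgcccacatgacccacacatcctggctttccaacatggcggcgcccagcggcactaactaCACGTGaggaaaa
Max: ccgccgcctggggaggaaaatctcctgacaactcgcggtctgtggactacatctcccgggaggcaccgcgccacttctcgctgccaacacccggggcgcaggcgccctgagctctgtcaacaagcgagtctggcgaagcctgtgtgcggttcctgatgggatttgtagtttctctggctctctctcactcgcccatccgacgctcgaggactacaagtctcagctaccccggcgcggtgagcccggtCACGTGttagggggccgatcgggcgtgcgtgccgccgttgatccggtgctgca
Pes1: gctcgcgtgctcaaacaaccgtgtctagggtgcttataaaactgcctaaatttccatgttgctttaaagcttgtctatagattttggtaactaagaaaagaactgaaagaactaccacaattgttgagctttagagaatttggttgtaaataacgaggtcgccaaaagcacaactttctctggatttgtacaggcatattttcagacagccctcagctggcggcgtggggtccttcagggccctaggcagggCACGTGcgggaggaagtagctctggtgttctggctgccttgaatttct
Counted from the first transcribed base as 0, the motif began at 40 in Mybbp1a, at 37 in Utp20, at -3 in Max and at 2 in Pes1. In Utp4, Wdr43 and Nop2 it began at 15, 17 and -60. A match describes the letters of the window and does not show that MYC was bound there. Of 23 members called higher than nCas9 in at least 1 construct, 17 had a window and 6 of these held the motif. Among the other 17 members with a window 1 did. No such split was made over all tested genes, and whether the motif goes with the calls was not tested.

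Levels are given in CPM after TMM scaling of the libraries, which held 13835979 to 23284932 counts. Together the 42 genes took 0.830% ± 0.037 of all counts with nCas9, 0.900% ± 0.025 with the catalytic mutant, 0.947% ± 0.031 with intact BE under vehicle and 0.915% ± 0.036 with seBE under vehicle (SD, n = 3). With rapamycin the share was 0.873% ± 0.020 in intact BE cells and 0.909% ± 0.052 with seBE. Without replicate 3, the library that stood apart, it was 0.887% with the catalytic mutant and 0.881% with seBE under rapamycin. The lowest intact BE library under vehicle, at 0.911%, lay above the highest nCas9 library, at 0.872%. Ncl and Npm1 account for a large portion of this share: without them it was 0.555% with nCas9, 0.629% with the catalytic mutant and 0.605% with intact BE under vehicle. The share taken by mitochondrial genes had a lower mean in each editor group than with nCas9, with means of 5.10%, 4.53%, 1.88%, 2.11%, 3.19% and 3.58% for nCas9, the catalytic mutant, intact BE under vehicle and rapamycin, and seBE under vehicle and rapamycin. With these genes left out of the total, the share of the 42 genes was 0.874% with nCas9, 0.943% with the catalytic mutant and 0.965% with intact BE under vehicle. Of the 66 calls among the 42 genes described here, 65 were kept with mitochondrial genes removed before the fit. In bulk samples such as these, fewer cells that make an RNA and less of it per cell cannot be told apart.

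**Figure D1:**
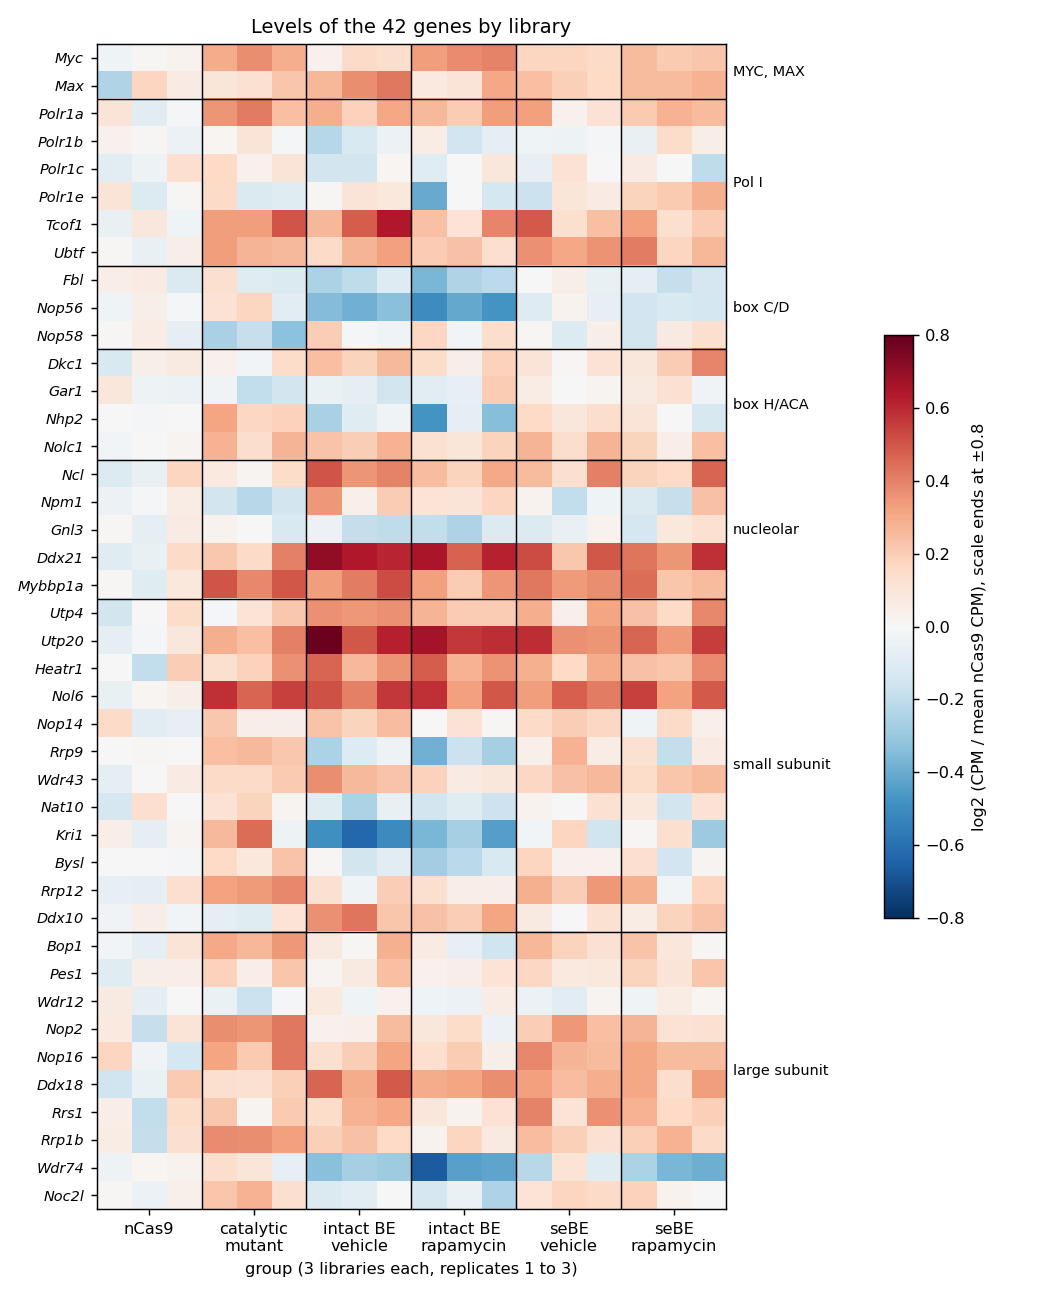
Levels of the 42 genes in each of the 18 libraries (columns, 3 per group), as log2 of CPM over the mean CPM of nCas9 (colour, limited to 0.8 in each direction). Utp20, Ddx21, Nol6 and Mybbp1a are red in all 5 editor groups. Nop56 and Kri1 are blue in the intact BE columns, and Wdr74 is blue in these and in the seBE rapamycin columns.

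Groups were compared with edgeR's quasi-likelihood F test on all 14985 genes in 1 fit, with p-values adjusted by Benjamini and Hochberg within each comparison, and a gene is called at an adjusted p under 0.05. Shares over all genes are from this fit, also where a count from DESeq2 or another alternative stands beside them. Intact BE under vehicle was set against nCas9 to ask what an active editor changed relative to the nickase alone. Of the 42 genes 17 were called higher and 3 lower, where over all genes 13.1% were called higher and 9.83% lower (23% in either direction). The median log2 fold change was 0.16 over the 42 genes and -0.04 over all genes tested. In 20 of the 42 genes all intact BE libraries lay above all nCas9 libraries, as in 19.8% of all genes, and in 7 below, as in 18.2%.

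Among the abundant nucleolar proteins, 3 of 5 rose. Ddx21 (ENSMUSG00000020075), an RNA helicase that links polymerase I and polymerase II transcription to rRNA processing, was at 248, 255 and 295 CPM with nCas9 and at 434, 414 and 404 CPM with intact BE. The groups did not overlap, and the level was 1.57-fold higher (log2 fold change 0.65 ± 0.084 SE, edgeR adjusted p = 1.85e-06). Mybbp1a (ENSMUSG00000040463), a nucleolar protein first found as a MYB-binding factor, was at 329, 305 and 346 CPM with nCas9 and at 411, 434 and 468 CPM with intact BE. Every intact BE library was above every nCas9 library for this gene, a difference of 0.42 ± 0.073 on the log2 scale (edgeR adjusted p = 6.17e-05). Ncl encodes nucleolin, one of the main nucleolar proteins and a chaperone of pre-rRNA, and had 1349, 1401 and 1639 CPM with nCas9 and 2066, 1863 and 1922 CPM with intact BE. The ranges were separate, with a log2 fold change of 0.41 ± 0.081 (edgeR adjusted p = 0.000283). Npm1, which encodes the nucleolar chaperone nucleophosmin, was at 1232, 1263 and 1329 CPM with nCas9 and at 1619, 1309 and 1468 CPM with intact BE. Here the ranges met, and the difference of 0.20 ± 0.083 was not called (edgeR adjusted p = 0.0806). The counts of Npm1 are uncertain because the genome holds processed copies of it and the handling of multi-mapping reads is not given in the sources used here. Gnl3 (nucleostemin), with a log2 fold change of -0.15, was not called either.

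Small subunit processing factors gave the longest list, with 6 of 12 higher and 1 lower. Utp20 (ENSMUSG00000004356), a very large component of the small subunit processome, was at 76.2, 79.3 and 85.4 CPM with nCas9 and at 138, 113 and 123 CPM with intact BE. The lowest intact BE library exceeded the highest nCas9 library, and the difference was 1.56-fold (0.64 ± 0.085 on the log2 scale, edgeR adjusted p = 2.66e-06). Nol6, another processome protein, was at 49.1, 51.7 and 52.9 CPM with nCas9 and at 72.8, 67.7 and 75.9 CPM with intact BE. It was 0.49 ± 0.087 higher on the log2 scale (edgeR adjusted p = 8.61e-05), and the groups were separate. Ddx10, a helicase of the same pathway, was at 70.6, 74.6 and 70.8 CPM with nCas9 and at 92.7, 96.7 and 84.1 CPM with intact BE, with no overlap (log2 fold change 0.34, edgeR adjusted p = 0.00243). Wdr43, Heatr1 and Utp4, which belong to the early processome, were called higher with log2 fold changes of 0.29, 0.35 and 0.35.

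Kri1 (ENSMUSG00000035047), whose yeast counterpart is needed for 40S subunit formation, went the other way. It was at 115, 105 and 112 CPM with nCas9 and at 78.8, 71.4 and 77.8 CPM with intact BE, 1.46-fold lower and without overlap (log2 fold change -0.54 ± 0.10, edgeR adjusted p = 0.000251). Nop56 (ENSMUSG00000027405), a core protein of the box C/D particles that methylate rRNA, was at 542, 573 and 549.9 CPM with nCas9 and at 436, 425 and 441 CPM with intact BE. All 3 intact BE libraries were below all nCas9 libraries, a log2 difference of -0.35 ± 0.068 (edgeR adjusted p = 0.00021). Its partner Fbl (fibrillarin, the methyltransferase of the same particle) was at 174, 175 and 155 CPM with nCas9 and at 141, 146 and 157 CPM with intact BE. These ranges touched, and Fbl was not called (log2 fold change -0.19 ± 0.077, edgeR adjusted p = 0.0815). The third core protein, Nop58, had a log2 fold change of 0.05. Wdr74, an assembly factor of the large subunit, was at 52.7, 54.7 and 55.2 CPM with nCas9 and at 43.0, 45.1 and 44.5 CPM with intact BE. Its ranges did not overlap (log2 fold change -0.29 ± 0.098, edgeR adjusted p = 0.0267), but the call was lost when any 1 of the 6 libraries was left out. In the GENCODE M21 annotation 17 of the 42 genes overlap an exon on the opposite strand, Kri1 (Atg4d) and Nop56 (Idh3b) among the genes called lower here, and Mybbp1a (Spns2), Polr1a, Heatr1, Wdr43 and Dkc1 among the 17 called higher. The strand setting of the counting is not given in the sources used here, so reads of these neighbours could be included.

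Of the 6 genes of RNA polymerase I and its factors, 3 rose with intact BE. Tcof1, whose protein treacle recruits factors to the rDNA, had the lead with a log2 fold change of 0.47 ± 0.094 (edgeR adjusted p = 0.000365). Ubtf, the upstream binding factor that opens rDNA for transcription, was at 192, 184 and 198 CPM with nCas9 and at 213, 231 and 240.2 CPM with intact BE. The groups were separate, at 1.19-fold (log2 fold change 0.25 ± 0.071, edgeR adjusted p = 0.00835), and the call was lost without intact BE replicate 3 (edgeR adjusted p = 0.0526). Polr1a, the largest subunit of the polymerase, was at 86.3, 75.3 and 79.8 CPM with nCas9 and at 98.3, 91.5 and 99.6 CPM with intact BE. Its log2 fold change was 0.26 ± 0.082 with no overlap (edgeR adjusted p = 0.0183), and it was lost without intact BE replicate 1, intact BE replicate 3 or nCas9 replicate 2 (edgeR adjusted p = 0.0590, 0.0673 and 0.0943). The subunit genes Polr1b, Polr1c and Polr1e did not pass, with log2 fold changes between -0.13 and 0.06.

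Max was at 54.7, 72.8 and 67.8 CPM with nCas9 and at 77.6, 83.7 and 86.8 CPM with intact BE. It was called higher (log2 fold change 0.35 ± 0.091, edgeR adjusted p = 0.00506), with separate ranges and with nCas9 replicate 1 the lowest of the 18 libraries; without that library the difference was 0.24 and not called (edgeR adjusted p = 0.0706). Myc (ENSMUSG00000022346) was at 171, 176 and 179 CPM with nCas9 and at 179.7, 195 and 194 CPM with intact BE. The ranges were adjacent, and the log2 fold change of 0.11 ± 0.066 did not pass (edgeR adjusted p = 0.245). In the box H/ACA group, which converts uridines of rRNA to pseudouridine, the pseudouridine synthase gene Dkc1 and the chaperone gene Nolc1 were called higher at 0.22 and 0.24, while Gar1 and Nhp2 were not called. Large subunit factors gave 2 of 10 higher, Ddx18 at 0.41 and Rrs1 at 0.24, and 1 lower. Among the calls described here, Dkc1 was lost in 3 and Rrs1 in 4 of the 6 fits that left out 1 library of either group. With the trend on transcript length and GC content removed from each library, 19 genes were called higher and 3 lower. In that fit Myc (0.19, edgeR adjusted p = 0.0120), Npm1 (0.24), Bop1 (0.27), Nop16 (0.29) and Nop2 (0.20) were called higher, Nop58 was called lower (-0.16, edgeR adjusted p = 0.0361), and Polr1a (0.09), Wdr74 (-0.06), Heatr1 (0.14) and Dkc1 (0.16) were not called. Signs changed in 8 of the 42 genes, Fbl (from -0.19 to 0.08) and Nhp2 (from -0.12 to 0.12) among them.

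**Figure D2:**
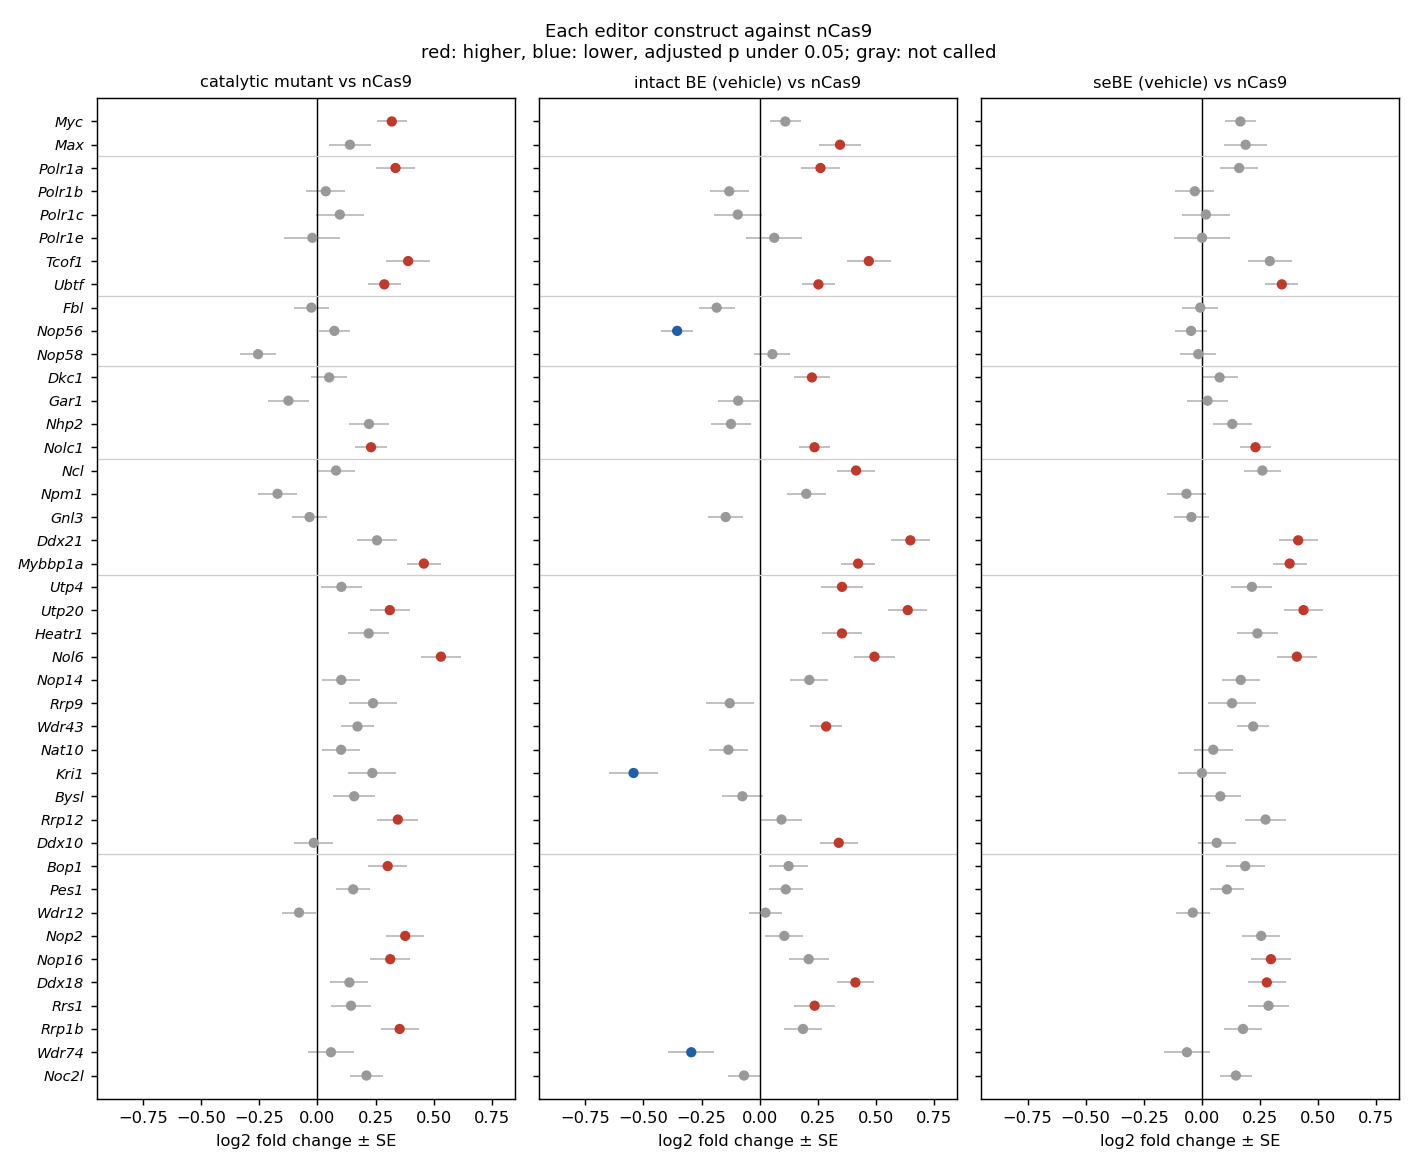
Log2 fold change of each gene against nCas9 (horizontal axis; points are edgeR estimates, bars 1 SE) for the catalytic mutant, intact BE under vehicle and seBE under vehicle, with genes in order of role. Called genes are coloured: 13 in the first panel, 17 higher and 3 lower in the second, and 8 in the third.

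The catalytic mutant was set against nCas9 to ask what the editor protein changed without an active deaminase. Of the 42 genes 13 were called higher and 0 lower with edgeR, where 2.24% of all genes were called higher and 2.06% lower (4.3% in either direction). At an unadjusted p under 0.05 there were 23 of the 42, and 2831 of all 14985 genes. DESeq2 called 15 higher and 1 lower, Nop58 (log2 fold change -0.25, DESeq2 adjusted p = 0.0290). The median of the 42 was 0.16 and of all genes 0.00. In 19 of the 42 genes all catalytic mutant libraries lay above all nCas9 libraries (11.2% of all genes), and in 2 below (10.1%). Because nCas9 is the control of all 3 construct comparisons, a deviation of its libraries enters each of them.

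Myc was at 215, 227 and 215 CPM with the catalytic mutant, against 171 to 179 CPM with nCas9. The ranges were far apart relative to their spread, and Myc was called higher at 1.25-fold (log2 fold change 0.32 ± 0.066, edgeR adjusted p = 0.00423). Max was at 69.2, 70.4 and 75.5 CPM and overlapped nCas9 (log2 fold change 0.14, not called). Mybbp1a was at 461, 425 and 459 CPM, 0.46 ± 0.073 above nCas9 on the log2 scale (edgeR adjusted p = 0.00061). Nol6 had the largest estimate among the 42 genes, with 76.6, 70.7 and 74.9 CPM and a log2 fold change of 0.53 ± 0.087 (edgeR adjusted p = 0.000723). Neither gene overlapped nCas9 in any library, and both calls held in all 16 alternatives tried.

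The polymerase I group again had 3 of 6 genes higher, the same 3 as with intact BE. Polr1a reached 103, 107 and 94.9 CPM (log2 fold change 0.34, edgeR adjusted p = 0.0141), Ubtf 241, 231 and 229 CPM (0.29, edgeR adjusted p = 0.0152), and Tcof1 a log2 fold change of 0.39 (edgeR adjusted p = 0.0131). No library of these genes overlapped nCas9. Large subunit genes gave 4 of 10: Nop2, an rRNA methyltransferase, at 0.38 (edgeR adjusted p = 0.00644), Rrp1b at 0.35, Nop16 at 0.31 and Bop1, a member of the PeBoW complex with Pes1 and Wdr12, at 0.30. Pes1 and Wdr12 themselves were at 0.15 and -0.08 and were not called. In the small subunit group Rrp12, an export factor, and Utp20 were called at 0.35 and 0.31 beside Nol6, with Utp20 at 98.2, 94.7 and 106 CPM. Nolc1 was called at 0.23. Ncl at 1540.0, 1482 and 1617 CPM, Npm1 at 1152, 1091 and 1153 CPM, Fbl at 183, 157 and 155 CPM and Nop56 at 602, 624 and 524 CPM were not called. Of these, Npm1 was below nCas9 in every library and the other genes overlapped it.

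The count of 13 for the catalytic mutant moved when single libraries were left out. It was 8 without catalytic mutant replicate 3, the library that stood apart: Tcof1 (edgeR adjusted p = 0.0632), Rrp12 (0.0630), Bop1 (0.0902), Nolc1 (0.117), Utp20 (0.114) and Nop16 (0.127) were then lost and Kri1 was gained (0.36, edgeR adjusted p = 0.0451). It was 4 without nCas9 replicate 2 and 8 without nCas9 replicate 1 or catalytic mutant replicate 1. It was 2 without nCas9 replicate 2 and catalytic mutant replicate 3 together, an alternative chosen after the data were seen, with Myc then at an edgeR adjusted p of 0.0519. Ubtf was lost without nCas9 replicate 2 (edgeR adjusted p = 0.0962) or catalytic mutant replicate 1 (0.0658), and Polr1a without nCas9 replicate 2 (0.0993) or catalytic mutant replicate 2 (0.0641). Nolc1 was lost in 5 of 6 such fits, Utp20, Bop1 and Nop16 in 4, Rrp12 in 3, Tcof1 in 2 and Nop2 and Rrp1b in 1. With the length and GC trend removed 8 genes were called; Myc (0.26, edgeR adjusted p = 0.0110) was among them, Ddx21 (0.27) and Wdr43 (0.25) were gained, and Ubtf (0.16), Polr1a (0.24), Tcof1 (0.18), Bop1 (0.14), Rrp12 (0.19), Rrp1b (0.25) and Nolc1 (0.16) were not called.

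SeBE under vehicle was set against nCas9 in the same way. It had 8 of the 42 genes higher and 0 lower, where 2.64% of all genes were called higher and 1.93% lower (4.56% in either direction), and DESeq2 called 15 higher. The median of the 42 genes was 0.16, against -0.01 over all genes. Of the 42, 20 had all seBE libraries above all nCas9 libraries, as did 11.8% of all genes, and 0 had all below, as did 10.7%. At an unadjusted p under 0.05 there were 21 of the 42, and 2746 of all 14985 genes. The 8 called genes were Mybbp1a, Utp20, Ddx21, Ubtf, Nol6, Nop16, Ddx18 and Nolc1.

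Mybbp1a was at 437, 413 and 423 CPM with seBE, all above the nCas9 range of 305 to 346 CPM (log2 fold change 0.38 ± 0.073, edgeR adjusted p = 0.00249). Utp20 was at 121, 103 and 102 CPM, again separate from nCas9 (0.44 ± 0.085, edgeR adjusted p = 0.00262). Ddx21 had 381, 308 and 375 CPM, with seBE replicate 2 the closest to nCas9 (0.41 ± 0.084, edgeR adjusted p = 0.00372). Of the polymerase I genes only Ubtf was called here, at 247, 237 and 245 CPM (0.34 ± 0.071, edgeR adjusted p = 0.00415); Polr1a at 101, 82.3 and 87.2 CPM overlapped nCas9. Nol6 had 64.6, 71.2 and 68.1 CPM, above every nCas9 library (0.41 ± 0.087, edgeR adjusted p = 0.00546). Myc, at 198, 198 and 195 CPM, was above every nCas9 library but not called (0.17 ± 0.065, edgeR adjusted p = 0.146), and Max at 76.5, 73.7 and 72.3 CPM overlapped the nCas9 range. Ncl at 1739.9, 1592 and 1924 CPM, Npm1 at 1298, 1111 and 1243 CPM, Fbl at 168, 173 and 161 CPM and Nop56 at 516, 566 and 529 CPM overlapped nCas9 and were not called. The count was 5 without nCas9 replicate 2, seBE replicate 1 or seBE replicate 3. Nolc1 and Nop16 were each lost in 5 of the 6 such fits and Ddx18 in 4.

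**Figure D3:**
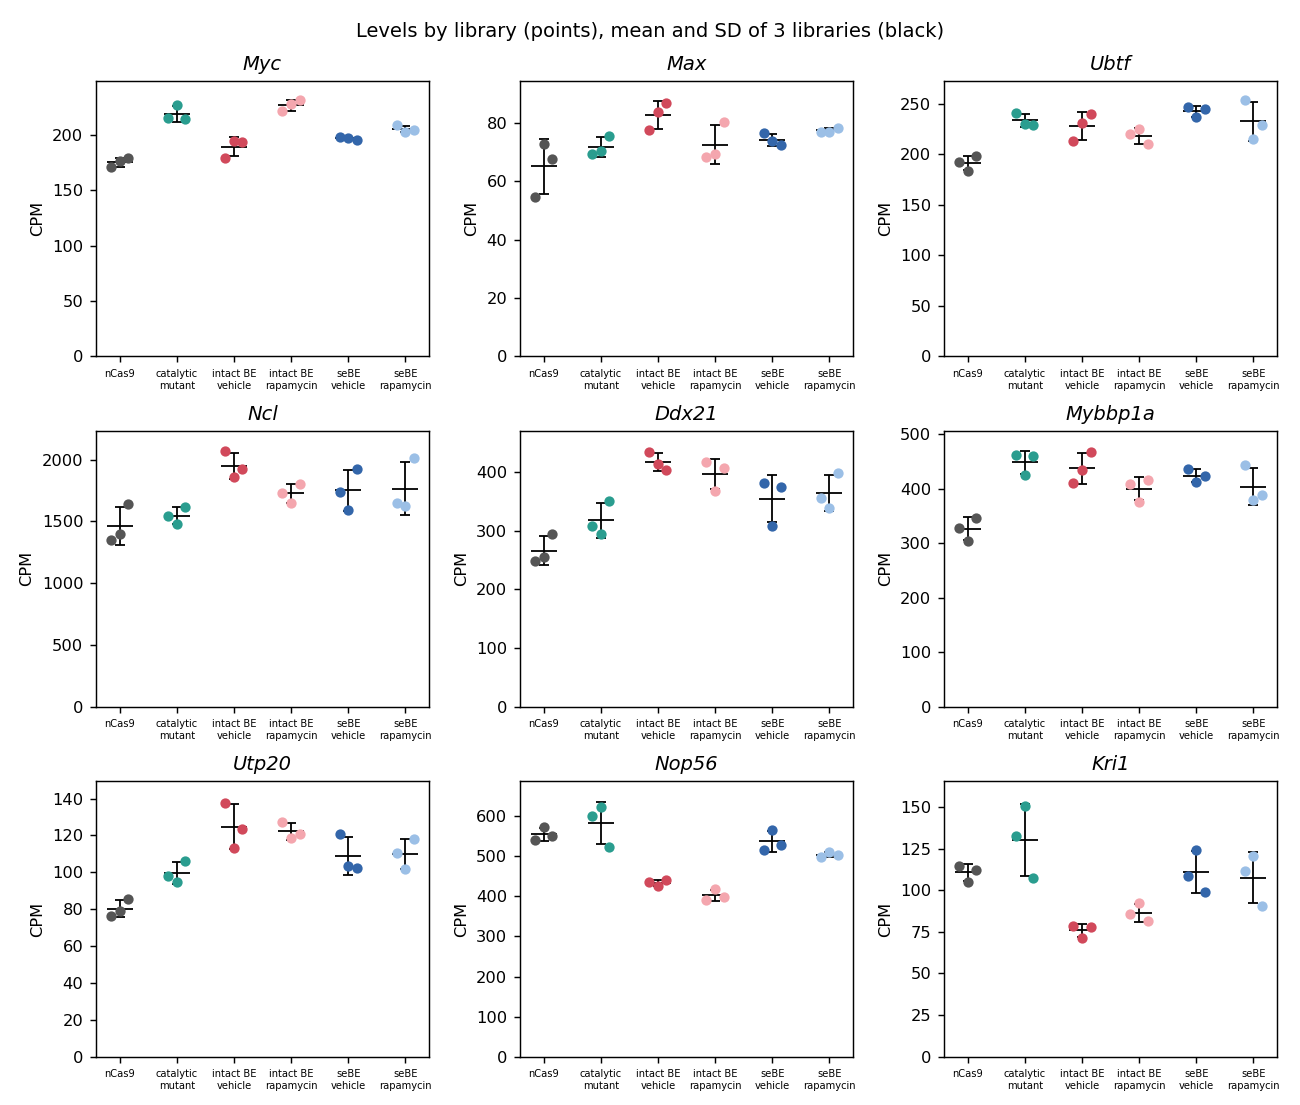
CPM of 9 of the genes in every library (points), with the mean and SD of the 3 libraries per group in black and all vertical axes from 0. Mybbp1a and Utp20 lie above nCas9 in each editor group, Nop56 is lowest in both intact BE groups, and Myc is highest with the catalytic mutant and with rapamycin-treated intact BE.

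Intact BE under vehicle was set against the catalytic mutant to ask what the activity of the deaminase added. The 42 genes divided, with 8 called higher and 10 lower, where 11.6% of all genes were called higher and 9.33% lower (21% in either direction). The median was -0.04 over the 42 genes and -0.03 over all genes. Libraries did not overlap in 11 genes that were higher (20.1% of all genes) and 14 that were lower (17.7%).

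Kri1 was at 133, 151 and 108 CPM with the catalytic mutant against 71.4 to 78.8 CPM with intact BE. The groups were separate, and it was 1.72-fold lower with intact BE (log2 fold change -0.78 ± 0.10, edgeR adjusted p = 1.63e-05). Nop56 was 1.35-fold lower and also separate (-0.43 ± 0.068, edgeR adjusted p = 6.16e-05). Nhp2, a core protein of the box H/ACA particles, was at 194, 175 and 178 CPM with the catalytic mutant and at 131, 146 and 153 CPM with intact BE (-0.35 ± 0.084, edgeR adjusted p = 0.00314). Other genes called lower were Noc2l, Rrp9, Wdr74, Nop2, Rrp12 and Nat10, with log2 fold changes between -0.37 and -0.24, and Myc at -0.21 ± 0.065 (edgeR adjusted p = 0.0194). The Myc call was lost without catalytic mutant replicate 2 (edgeR adjusted p = 0.101) or intact BE replicate 1 (0.131). Of the 10 genes called lower, 5 overlap an exon on the opposite strand, and of the 8 called higher 0 do. As the strand setting is not given, reads of such neighbours could be included here too.

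The genes called higher than in the catalytic mutant were led by nucleolar proteins, 3 of 5 of that group. Ddx21 was at 308, 295 and 351 CPM with the catalytic mutant, below all intact BE libraries (0.39 ± 0.084, edgeR adjusted p = 0.000976). Npm1 differed by 0.37 ± 0.083 (edgeR adjusted p = 0.0015) and Ncl by 0.33 ± 0.081 (edgeR adjusted p = 0.00294), both without overlap. Ddx10 was at 68.5, 67.4 and 77.7 CPM with the catalytic mutant, also without overlap (0.36 ± 0.083, edgeR adjusted p = 0.00197), a call lost with the trend removed (0.16, edgeR adjusted p = 0.140). Nop58, Utp20, Ddx18 and Utp4 were higher by 0.31, 0.33, 0.27 and 0.25. Ubtf, Polr1a and Tcof1, raised in both constructs against nCas9, were not called between them, and 0 of the 6 polymerase I genes passed here with edgeR as fitted, also at an unadjusted p under 0.05, while Tcof1 was called higher with the length and GC trend removed (0.31 in place of 0.08, edgeR adjusted p = 0.0377). Without intact BE replicate 1 the count of 18 fell to 8, of which 4 were higher and 4 lower. Without catalytic mutant replicate 3, the library that stood apart, the count was 17, of which 8 were higher and 9 lower. Rrp12 was then lost (edgeR adjusted p = 0.0973). Over the 6 fits that left out 1 library, Rrp12 and Utp4 were lost in 5, Nat10 in 4, Ddx18 in 3, Nop2 and Wdr74 in 2, and Nop58, Rrp9 and Utp20 in 1, that without intact BE replicate 1 (edgeR adjusted p = 0.0675, 0.0770 and 0.0779).

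Transcript composition moved with this comparison, as with several others. The 8 genes called higher had a median GC content of 44.6% over the longest coding transcript, and the 10 called lower had 55.0%. Across the 42 genes the log2 fold change and GC content had a Pearson r of -0.675 and a Spearman rho of -0.70; the genes share the same libraries, and this is a description. The Pearson r was 0.599 for seBE against intact BE under vehicle, 0.535 for the catalytic mutant against nCas9, -0.539 for rapamycin in seBE cells and between -0.42 and 0.39 in the other 5 comparisons. With the per-library trend on length and GC removed, 10 genes were called, 6 higher and 4 lower, in place of 8 and 10. Kri1 (-0.57, edgeR adjusted p = 0.000119), Nop56 (-0.39, edgeR adjusted p = 4.81e-05), Ddx21 (0.21, edgeR adjusted p = 0.0363), Npm1 (0.21, edgeR adjusted p = 0.0343) and Ddx18 (0.22, edgeR adjusted p = 0.0390) were called both ways. The other 13 of the 18 calls were lost. Among genes that had been higher, Ncl (0.03), Utp20 (0.10), Ddx10 (0.16) and Utp4 (0.21) no longer passed. Among those that had been lower, Nhp2 (-0.13), Myc (-0.07), Noc2l (-0.06), Nop2 (-0.08), Rrp12 (-0.09), Wdr74 (-0.12) and Nat10 (-0.18) no longer passed. Nop58 and Rrp9 took the opposite sign at -0.01 and 0.0084. There were 5 gains: Gar1 (0.34, edgeR adjusted p = 0.0100), Tcof1 (0.31) and Rrs1 (0.27, edgeR adjusted p = 0.0291) were called higher, and Gnl3 (-0.25, edgeR adjusted p = 0.00962) and Wdr12 (-0.22, edgeR adjusted p = 0.0380) lower. Estimates of 10 of the 42 genes changed sign, among them the uncalled Bop1 (from -0.18 to 0.13) and Fbl (from -0.16 to 0.14).

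**Figure D4:**
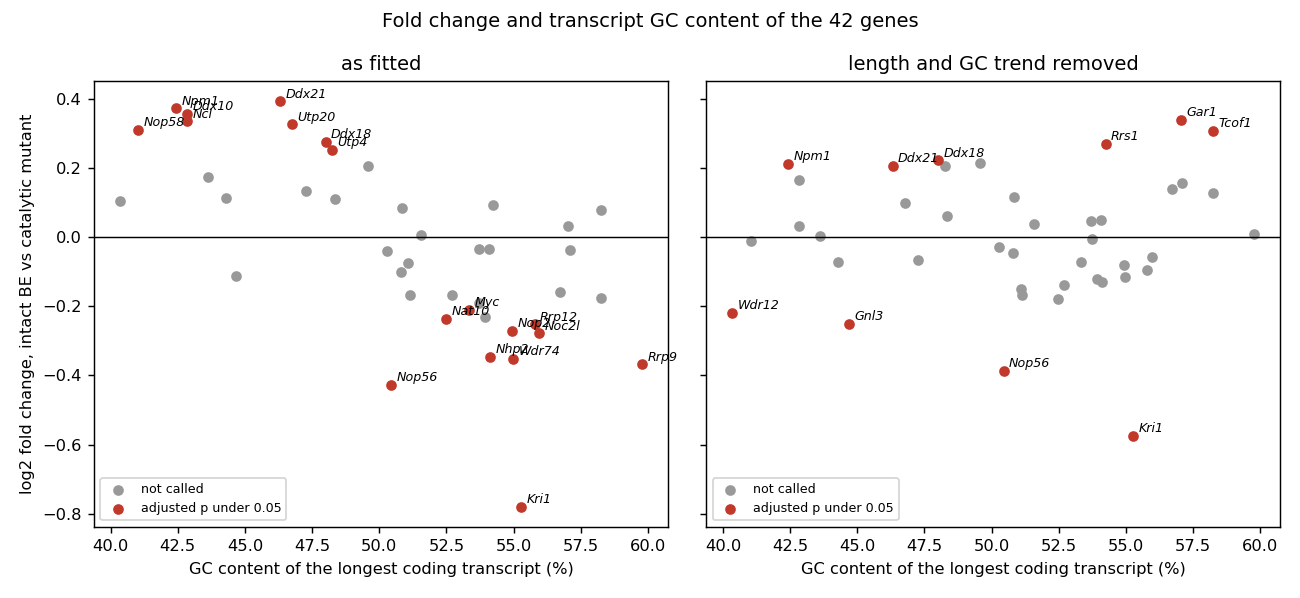
Log2 fold change of intact BE under vehicle against the catalytic mutant (vertical axis) and GC content of the longest coding transcript (horizontal axis, %) for the 42 genes, as fitted (left) and with the length and GC trend removed (right). Red points are called: 18 genes at left and 10 at right, with Kri1 and Nop56 lowest in both panels.

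SeBE and intact BE were compared under the same treatment. Under vehicle 2 of the 42 genes were higher with seBE and 1 lower, near the shares over all genes of 1.68% and 2.32% (3.99% in either direction), and the median was -0.01 over the 42 and 0.01 over all genes. Kri1 was at 109, 124 and 99.2 CPM with seBE, above all intact BE libraries (log2 fold change 0.54 ± 0.10, edgeR adjusted p = 0.00323). Nop56 was 1.24-fold higher, and no library overlapped (0.31 ± 0.068, edgeR adjusted p = 0.00944). Ddx10 was at 75.6, 71.8 and 78.3 CPM with seBE, below every intact BE library (-0.28 ± 0.082, edgeR adjusted p = 0.0482), a call lost in 10 of 15 alternatives. Against nCas9, seBE gave 0.00 ± 0.10 for Kri1, -0.05 ± 0.067 for Nop56 and 0.06 for Ddx10, none of them called. The count of 3 fell to 0 without seBE replicate 2 (Kri1 edgeR adjusted p = 0.0671, Nop56 0.120) and to 1 without intact BE replicate 1 (Nop56 0.0603). Nop56 was also lost without intact BE replicate 2 (0.0515). DESeq2 called 6 genes, 4 higher and 2 lower, and edgeR with DESeq2's size factors called 2 higher and 0 lower. Libraries did not overlap in 13 genes that were higher with seBE (14.4% of all genes) and 6 that were lower (15%). Both Kri1 and Nop56, the 2 called higher, overlap an exon on the opposite strand, as do 2 of the 3 called higher under rapamycin.

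Under rapamycin 3 of the 42 were higher with seBE than with intact BE and 0 lower, where 2.04% of all genes were called higher and 2.66% lower (4.69% in either direction). The median was 0.09 over the 42 and 0.01 over all genes. Nop56 was at 499, 510.2 and 504 CPM with seBE and at 391, 417 and 398 CPM with intact BE. It did not overlap (0.33 ± 0.067, edgeR adjusted p = 0.00306), and its call held in all 15 alternatives tried. Nhp2 was at 168, 157 and 143 CPM with seBE and at 112, 148 and 123 CPM with intact BE, which overlap (0.29 ± 0.084, edgeR adjusted p = 0.0397). Polr1e, a subunit of the polymerase that helps it start and elongate, was at 32.0, 32.7 and 34.3 CPM with seBE and at 21.3, 28.1 and 25.6 CPM with intact BE. Its ranges were separate (0.40 ± 0.12, edgeR adjusted p = 0.0427). The count was 1 without intact BE replicate 1, intact BE replicate 3 or seBE replicate 2, and 5 without seBE replicate 3, the library that stood apart, where Nop56 (0.33) and Nhp2 (0.35, edgeR adjusted p = 0.0120) were called and Polr1e was not (edgeR adjusted p = 0.0770). Nhp2 was lost in 4 of 6 such fits and Polr1e in 5, with edgeR adjusted p up to 0.280 and 0.257. With the length and GC trend removed Nhp2 was lost (0.17, edgeR adjusted p = 0.159), and Gnl3 (0.22) was called higher and Myc (-0.20, edgeR adjusted p = 0.0247) lower with seBE. Libraries did not overlap in 7 genes that were higher (9.54% of all genes) and 2 that were lower (10%).

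Rapamycin was set against vehicle within each editor. In intact BE cells 1 of the 42 genes was called higher and 0 lower, where 1.98% of all genes were called higher and 1.34% lower (3.32% in either direction). The gene was Myc, which went from 179.7, 195 and 194 CPM under vehicle to 222, 228 and 231 CPM under rapamycin. The ranges were separate, with 1.20-fold higher levels after the drug (log2 fold change 0.26 ± 0.065, edgeR adjusted p = 0.0174). Left-out libraries kept the direction but not the call, with edgeR adjusted p from 0.0521 to 0.119 over the 6 fits. The lowest, 0.0521, was without intact BE rapamycin replicate 1, and the highest without intact BE vehicle replicate 1, while those without rapamycin replicates 2 and 3 and vehicle replicates 2 and 3 gave 0.0608, 0.0758, 0.0579 and 0.0629.

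The other 41 genes did not pass. Their direction was mostly down: 34 of the 42 estimates were below 0, while 49.4% of all genes had estimates above 0. The median was -0.09 over the 42 and 0.00 over all genes. At an unadjusted p under 0.05 there were 8 of the 42, Myc included, and 2153 of all 14985 genes. All 10 large subunit genes and all 5 abundant nucleolar proteins had negative estimates. Ncl was at 1729, 1648 and 1801 CPM under rapamycin, below every vehicle library (-0.18, edgeR adjusted p = 0.299). With the length and GC trend removed Ncl was called lower (-0.22, edgeR adjusted p = 0.0174) beside Myc. Npm1 at 1376, 1370.2 and 1433 CPM, Fbl at 130.5, 142 and 145 CPM, Polr1a at 96.1, 92.7 and 101 CPM, Ubtf at 220.1, 225 and 209.9 CPM and Max at 68.1, 69.4 and 80.2 CPM overlapped vehicle. Nop56, at 391 to 417 CPM, was below every vehicle library and not called (-0.11, edgeR adjusted p = 0.505). In all, 9 genes were lower and 2 higher without overlap, where 11.8% and 10.5% of all genes were.

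In seBE cells rapamycin gave 0 called genes of the 42 and 0 of all genes with edgeR (0% of genes called). At an unadjusted p under 0.05 there were 1 of the 42, Wdr74, and 493 of all genes, and DESeq2 called 0 of the 42. Myc was at 209, 203 and 205 CPM under rapamycin against 195 to 198 CPM under vehicle. All 3 rapamycin libraries were above all vehicle libraries by a small step (0.06 ± 0.065, edgeR adjusted p = 0.999). The median was -0.02 over the 42 and 0.00 over all genes. The libraries of 3 genes were higher without overlap and those of 4 lower, as in 3.64% and 4.42% of all genes. Per library, Max was at 77.0, 76.9 and 78.2, Polr1a at 93.1, 97.2 and 95.9, Ubtf at 254, 216 and 229, Ncl at 1652, 1628 and 2016, Npm1 at 1177, 1121 and 1498 and Fbl at 159, 147 and 153 CPM. None of these was called. The difference between the drug effects of seBE and intact BE was tested as an interaction. Of the 42 genes 0 passed with edgeR and with DESeq2, where 0.187% of all genes were called with edgeR. At an unadjusted p under 0.05 there were 3 of the 42 and 1044 of all 14985 genes. For Myc this difference was -0.20 ± 0.092 (edgeR adjusted p = 0.657), so the Myc increase was called in intact BE only but was not shown to differ between the editors.

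**Figure D5:**
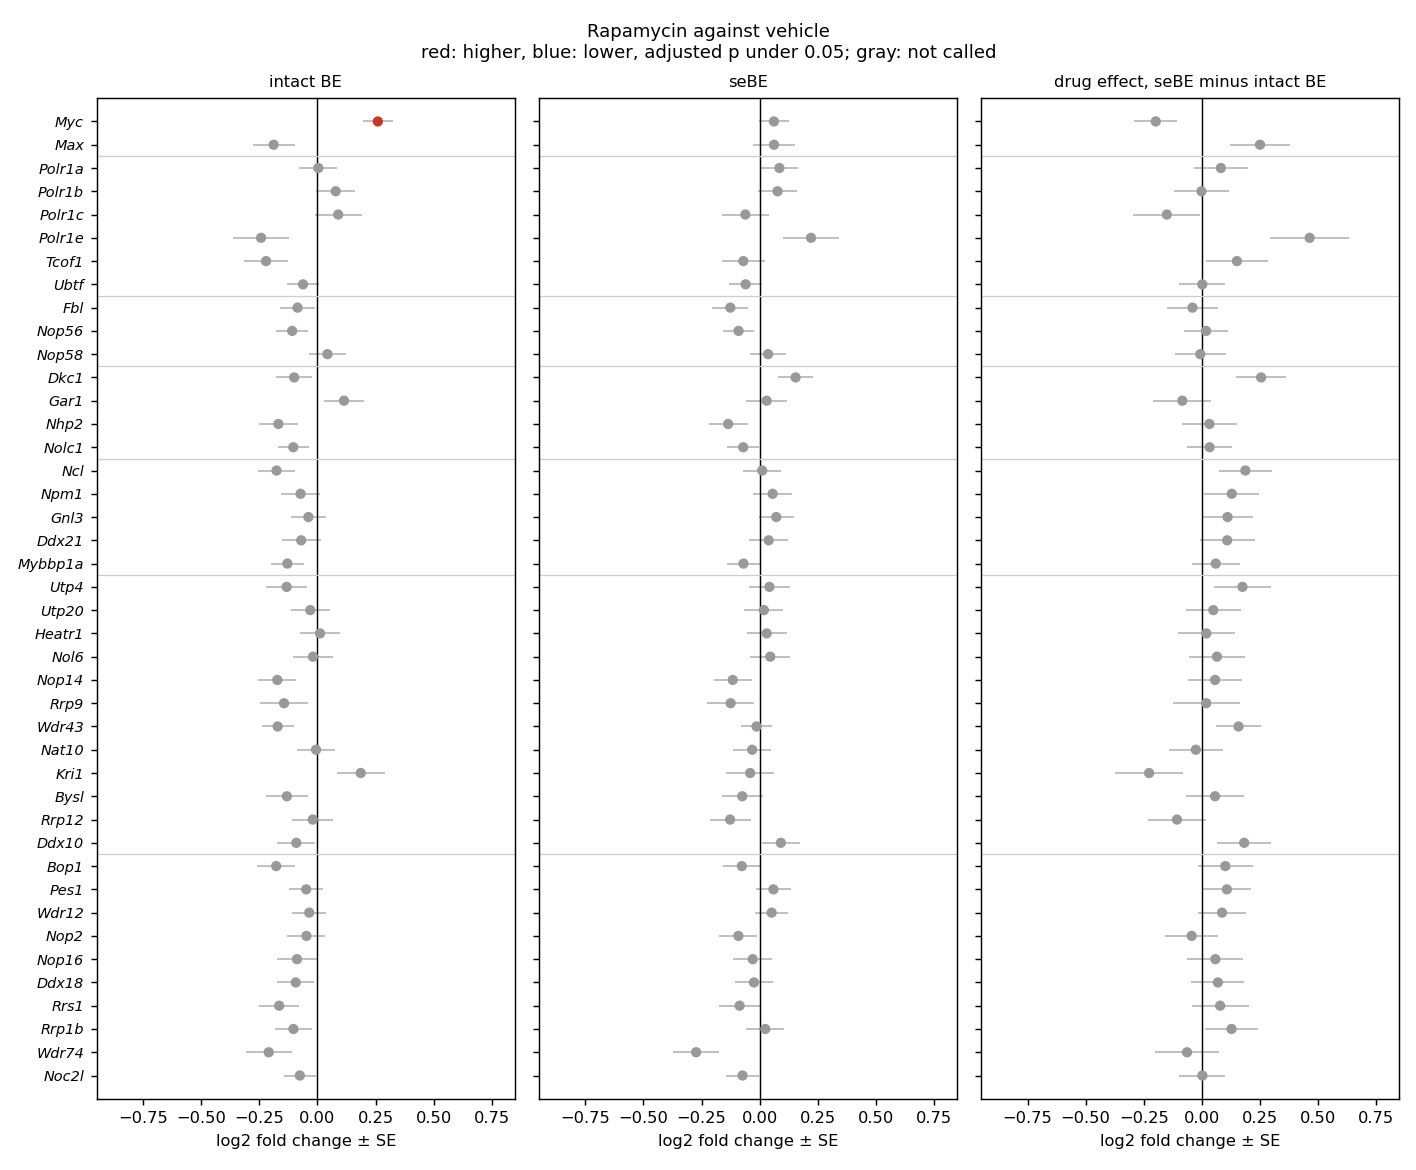
Log2 fold change of rapamycin against vehicle for the 42 genes (points are edgeR estimates, bars 1 SE) in intact BE and seBE cells, and the difference of these effects (right). Myc in intact BE cells is the called gene, and 34 of 42 estimates in that panel lie left of 0.

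Across the 9 comparisons 33 genes were called at least once and 9 never: Bysl, Fbl, Gar1, Gnl3, Nop14, Pes1, Polr1b, Polr1c and Wdr12. The shares of all genes called at least once, or higher in all 3 constructs, were not computed, so the counts given here describe the list alone. Intact BE under vehicle against nCas9 by itself gave a call in 23% of all genes. Utp20 and Nop56 were called in 4 comparisons each, Utp20 higher in each of 3 constructs against nCas9 and in intact BE against the catalytic mutant, and Nop56 in the 4 that set intact BE against another construct under the same or no drug. Mybbp1a, Nol6, Nolc1 and Ubtf joined Utp20 as genes called higher in all 3 constructs under comparison with nCas9, the control these comparisons share. For Mybbp1a the 3 log2 fold changes were 0.46 (catalytic mutant), 0.42 (intact BE) and 0.38 (seBE), and for Nol6 0.53, 0.49 and 0.41. For Utp20 they were 0.31, 0.64 and 0.44.

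A further list of 92 ribosome biogenesis genes outside the 42, of which 89 were tested, served as a reference for the pathway. Intact BE against nCas9 raised 22 (24.7%, against 13.1% of all genes) and lowered 6 of them (6.74%, against 9.83%), led by Urb2 at 0.51, Utp15 at 0.43 and Utp6 at 0.38, and by Taf1c at -0.59, Ddx55 at -0.58 and Nol12 at -0.46. Urb2, Utp15 and Utp6 act in pre-rRNA processing, and Taf1c is a subunit of the polymerase I selectivity factor. Its median was 0.10, against 0.16 for the 42 genes. For the catalytic mutant and seBE the counts of calls lay near the shares over all genes, while more of the estimates were above 0. They were positive in 61 and 67 of the 89, against 49.5% and 48.5% of all genes, with medians of 0.06 and 0.09. Libraries did not overlap nCas9 in 20 genes higher (11.2% of all genes) and 2 lower (10.1%) with the catalytic mutant. With seBE these were 19 (11.8%) and 4 (10.7%). The catalytic mutant raised 3 (3.37%, against 2.24% of all genes), Ddx54, Rrp15 and Nol9 at 0.35, 0.31 and 0.25, and seBE raised 3 (3.37%, against 2.64%), Rrp15, Utp6 and Imp4 at 0.33, 0.27 and 0.25. With edgeR 0 were lower in either. At an unadjusted p under 0.05 there were 21 and 24 of the 89, beside 2831 and 2746 of all 14985 genes. DESeq2 called 9 and 5 in all. Without catalytic mutant replicate 3, and without nCas9 replicate 2, the count for the catalytic mutant was 0. That for seBE was 0 without nCas9 replicate 2, seBE replicate 1 or seBE replicate 3. Between intact BE and the catalytic mutant 15 were higher (16.9%, against 11.6%) and 12 lower (13.5%, against 9.33%), with Esf1 at 0.52, Wdr36 at 0.33 and Utp15 at 0.36 and with Taf1c at -0.80, Ppan at -0.87 and Ddx49 at -0.50. Ppan was higher (0.60) and Esf1 lower (-0.46) with seBE than with intact BE under vehicle. That was 1.12% of the 89 in each direction, against 1.68% and 2.32% of all genes. Rapamycin lowered Ddx56 (-0.39) in intact BE cells, and Ddx56 (0.42) and Ddx49 (0.38) were higher with seBE than with intact BE under rapamycin. Their shares of the 89 were 1.12% and 2.25%, against 1.34% and 2.04% of all genes.

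Of 13 other genes of the MYC network 11 were tested, the family members Mycn and Mycl having 0 and 5 counts over all libraries. Intact BE against nCas9 lowered Mxd3 (-0.91, edgeR adjusted p = 0.000427), one of the MAX-binding antagonists of MYC, and raised Mxi1 (0.32) and Mga (0.28), which also bind MAX. That made 3 of the 11 called, near the share of 23% over all genes. Mxd3 was at 15.9, 13.3 and 16.0 CPM with nCas9 and at 7.48, 7.76 and 8.84 CPM with intact BE, without overlap. Mxd3 (-0.58) and Zbtb17 (-0.54), which encodes the MYC partner MIZ1, were lower with intact BE than with the catalytic mutant, and Mga (0.32) was higher. Again 3 of the 11 were called, near the 21% of all genes. None of the 11 (0) was called for the catalytic mutant or seBE against nCas9 with edgeR, where 4.3% and 4.56% of all genes were. At an unadjusted p under 0.05 there were 1 and 4 of the 11, beside 2831 and 2746 of all 14985 genes. Rapamycin in intact BE cells raised Mxd4 (0.64 ± 0.10, edgeR adjusted p = 0.000107), Mnt (0.35, edgeR adjusted p = 0.0367) and Mlxip (0.30, edgeR adjusted p = 0.0220). They were 3 of the 11, where 1.98% of all genes were called higher. Single calls of these 11 genes, and of the further list above, were not followed through the alternatives or with libraries left out. Mxd4 and Mnt encode MAX-binding repressors, and Mxd4 went from 41.6, 41.8 and 51.3 CPM to 70.3, 67.2 and 72.6 CPM. In seBE cells Mxd4 was at 49.2, 46.8 and 54.2 CPM under vehicle and at 56.7, 59.1 and 52.4 CPM under rapamycin, which overlap. The difference in drug effect for Mxd4 was -0.48 ± 0.14 (edgeR adjusted p = 0.268). Mxd1 was lower with seBE than with intact BE under rapamycin (-0.48, edgeR adjusted p = 0.00358). It was the 1 of the 11 called there, where 4.69% of all genes were called.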

How the data were processed

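RNA was measured in 18 libraries of polyA-selected RNA, 3 in each of 6 groups. The authors deposited raw read counts per gene as whole numbers. Per the submitters' processing notes, the tools were fastp 1.0.1, STAR 2.7.1a, SAMtools 1.9, featureCounts from Subread 2.0.3 and DESeq2, with genome GRCm39; for the annotation release, strand setting and multi-mapping reads the settings are not given in these sources. Libraries held 13835979 to 23284932 counts. Of 56748 gene IDs 52073 matched a symbol.

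The members and gene lists were chosen with earlier results of these data known. Genes passing filterByExpr (14985, with 99.93% of the counts) were fitted in R 4.3.3 with edgeR 4.0.16: TMM scaling, 6 group means over all 18 libraries, 12 residual degrees of freedom before moderation, and robust quasi-likelihood F tests (glmQLFit, glmQLFTest). The common dispersion of 0.0176 corresponds to a coefficient of variation of 13.3% between libraries. P-values were adjusted by Benjamini and Hochberg over all tested genes within each of 9 comparisons, with a threshold of 0.05. An SE is the log2 fold change divided by the square root of F. CPM are from TMM-scaled library sizes, with the SD over 3 libraries. The procedure was tested on simulated data.

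Values in each library are given for Myc, Max, Polr1a, Ubtf, Ncl, Npm1, Fbl and Nop56 and for up to 3 members per direction with the smallest adjusted p in a comparison; Mxd3, Mxd4 and their values per library were added after their values were seen. Up to 8 members per direction and up to 3 genes of each further list are named, in order of adjusted p, and the genes called most often.

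Alternatives were DESeq2 1.42.0, its size factors in edgeR, leaving out the filter, asking for 1 CPM in 3 libraries, the compared libraries alone, a replicate block, removal of mitochondrial genes, removal of a per-library trend on length and GC (longest coding transcript, GENCODE M21 on GRCm38, found for 97.4% of tested genes; spline with 4 degrees of freedom on genes of at least 3 on the log2 CPM scale), and each library left out. RefSeq promoter windows are on GRCm38.p6, another build than the counts, and were joined by symbol.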

Additional observations from a re-analysis of the deposited data

How the results depend on the processing

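The 42 genes gave 66 calls over the 9 comparisons, of which 25 held under every alternative run. DESeq2 kept 65 and gained 17, its size factors in edgeR kept 63, no filter kept 60, the 1 CPM filter kept 65, the compared libraries alone kept 59 and the removal of mitochondrial genes kept 65. Removing the length and GC trend kept 40, lost 24 and gained 18 with the sign unchanged. A further 4 values took the opposite sign, all for intact BE under vehicle. Of these, Nop58 and Rrp9 against the catalytic mutant lost their calls. Nop58 against nCas9 and Wdr12 against the catalytic mutant gained a call.

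Some counts of called genes moved by over 1.5 times. With the length and GC trend removed they were 8 for the catalytic mutant against nCas9, 10 for intact BE against the catalytic mutant and 2 for rapamycin in intact BE. With DESeq2 they were 6 for seBE against intact BE under vehicle and 15 for seBE against nCas9. With the compared libraries alone they were 7 for seBE against intact BE under vehicle and 1 under rapamycin. Without nCas9 replicate 2 and catalytic mutant replicate 3 together, chosen after seeing the data, they were 2 for the catalytic mutant and 5 for seBE against nCas9. With mitochondrial genes out of the total the share of counts was 0.943% with the catalytic mutant and 0.874% with nCas9. The cause was not tested.

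Any pairing of the samples by replicate number was weak, and the main fit held no replicate block. Over 45 same-number pairs of libraries the correlation of deviations ran from -0.069 to 0.115, with 1 above 0.1. Its median was 0.017, against -0.0066 over the other pairs between groups, and 13 of 18 libraries were closest to their own number. With a replicate block no call of the 66 was lost and 18 were gained; counts were 5 for seBE against intact BE under rapamycin, 7 under vehicle and 15 for seBE against nCas9. With the replicate block and the trend removed together they were 10 for intact BE against the catalytic mutant, 3 for rapamycin in intact BE, 6 for seBE against intact BE under rapamycin and 15 for seBE against nCas9.

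With the trend removed 57 of the 378 estimates (42 genes in 9 comparisons) changed sign, 4 of them called in either fit. The median of the 42 genes for intact BE against the catalytic mutant was 0.0036 without intact BE replicate 1 and reached -0.0817 without intact BE replicate 3. With the trend removed, without and with the replicate block, Nop58 was at -0.013 and -0.0125 and Rrp9 at 0.0084 and 0.0077 against the catalytic mutant, Wdr12 at -0.22 and -0.219 there, and Nop58 at -0.157 and -0.157 against nCas9, all for intact BE.

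With each library left out in turn, 286 of 396 calls were kept. The counts ran from 15 to 21 for intact BE against nCas9, from 4 to 14 for the catalytic mutant against nCas9, from 8 to 17 for intact BE against the catalytic mutant, from 5 to 12 for seBE against nCas9, from 0 to 3 for seBE against intact BE under vehicle, from 1 to 5 under rapamycin, and were 0 throughout for rapamycin in either editor and for the difference of drug effects.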
